A study of Mus musculus with 24 samples.

Results

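The 9 imprinted growth regulators Dlk1, Cdkn1c, Peg3, Peg10, Mest, Grb10, Plagl1, Ndn and Magel2 were followed in mouse adrenal glands and neuroblastoma tumors. They were taken by symbol from an RNA-seq table of 21833 protein-coding genes, where each had 1 entry. RNA was measured in 24 libraries of 4 groups. AG were adrenal glands of mice without Cre recombinase (n = 3). AGM were tumor-free adrenal glands of mice carrying Cre and 1 copy of a MYCN transgene (n = 5). The TI group held neuroblastomas from mice that carried Cre and IGF2BP1 as transgene (n = 8), heterozygous in 1 and homozygous in 7. The TIM group held neuroblastomas from mice that carried Cre and both transgenes, labelled IMP1/MYCN (n = 8). Their zygosity is not in the labels, and in the study's notation each transgene occupied 1 of the Rosa26 alleles, so 7 of the 8 TI tumors carried more IGF2BP1 copies than TIM tumors. Both transgenes stood at the Rosa26 locus behind a stop cassette, and an iCRE driven by the Dbh promoter switched them on in the sympatho-adrenal lineage. In the study, most IGF2BP1 tumors lay in the lower abdomen. Tumors of mice with both transgenes lay in adrenal glands, in the abdomen or along the spine. Most TI tumors and the AG glands thus differed in site. The mice had been backcrossed to C57Bl6/N. Age was not given in the labels used here. The study reports a shorter median survival with both transgenes than in homozygous IGF2BP1 mice, and a later culling of the tumor-free MYCN mice. Age thus differed between these groups too, and its part in the differences was not tested.

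An imprinted gene is transcribed mainly from the copy inherited from one parent, because DNA methylation laid down in the germ line marks a control region of its domain. Many imprinted genes set fetal growth, and most are turned down after birth. Dlk1, Peg3, Peg10, Mest, Plagl1, Ndn and Magel2 are expressed from the paternal copy. Cdkn1c is expressed from the maternal copy, as is Grb10 outside the brain, and both restrain growth. The adrenal gland keeps Dlk1 into adult life in some of its cells. Reads were not split by parental copy, so the imprint itself was not measured here.

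Values are FPKM, fragments per kilobase of gene and per 1000000 fragments of a scaled library, and differences are log2 fold changes of FPKM + 1 with their standard error (SE). A gene was called where the false discovery rate (FDR) of limma over the 10171 tested genes was below 0.05. Outside 126 genes above 1000 FPKM, none of them one of the 9 members, each library held 12334076 to 23683176 reads. Those 126 genes took 64.5% to 98.6% of the reads in AGM and TIM and 0.217% to 2.21% in AG and TI. The labels place the 3 AG glands in run 1 and the 5 AGM glands in run 2. Among TI tumors, run 1 held 6, run 2 held 1 and run 3 held 1, and the TIM tumors came from run 2 (3) and run 3 (5). For both AGM and TIM, a difference from AG cannot be told apart from one between runs. A difference between TIM and TI is nearly as bound to the run, and columns carry no run that could be fitted. The adrenal cortex markers summed to 506 to 536 FPKM in AG and 2372 to 3168 in AGM glands. Their sum was 0.0173 to 7.15 FPKM in TI tumors and 0.281 to 5.81 in TIM tumors. The chromaffin markers Th, Dbh, Pnmt, Phox2a, Chga and Chgb were present in all 4 groups, with sums of 132 to 190 FPKM in AG and 1454 to 2511 in AGM glands, and of 86.0 to 1730 in TI and 109.6 to 4634 in TIM tumors. The mouse Mycn entry was 2.30 ± 0.41 (SE) higher in TI and 1.15 ± 0.41 higher in TIM than in AG on the log2(FPKM + 1) scale (limma FDR = 5.4e-05 and 0.0214), and the mouse Igf2bp1 entry held at most 81 reads in any library, so it does not check the IGF2BP1 transgene.

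The members lie on chromosomes 6, 7, 10, 11 and 12. On GRCm39, Peg10 spans chr6:4747306-4760517 (+) and Mest chr6:30723546-30752058 (+). Chromosome 7 holds Peg3 at chr7:6706882-6733468 (-), Ndn at chr7:61995473-62000010 (+), Magel2 at chr7:62026758-62031388 (+) and Cdkn1c at chr7:143012069-143014806 (-). Plagl1 spans chr10:12936248-13007438 (+), Grb10 chr11:11880498-11988683 (-) and Dlk1 chr12:109418749-109429262 (+). Ndn and Magel2 are neighbors, 26747 bases apart. In the GENCODE annotation, exons of Mest share 3850 bases with Copg2 on the opposite strand. The libraries were strand-specific, but the strand setting of the counting is not given in the sources used here, so Mest and Copg2 may share reads.

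Promoter windows (250 bases before to 50 after a start, RefSeq, GRCm38.p6) were found for 7 of the 9 members, and none for Cdkn1c and Peg10. Imprinted promoters are often rich in CG dinucleotides, the sites of DNA methylation, so CG is shown in capitals in the 250 bases before the start of a member high in tumors, one low in TI tumors and one that varied widely. Each window matched GRCm39 exactly once.
Magel2, chr7:62026477-62026726 (GRCm39, +): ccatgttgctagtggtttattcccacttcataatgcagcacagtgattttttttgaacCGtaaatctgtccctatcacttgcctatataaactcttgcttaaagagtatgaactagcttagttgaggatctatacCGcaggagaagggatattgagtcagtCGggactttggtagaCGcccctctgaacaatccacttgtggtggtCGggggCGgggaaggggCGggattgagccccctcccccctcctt
Grb10, chr11:11987421-11987670 (GRCm39, -): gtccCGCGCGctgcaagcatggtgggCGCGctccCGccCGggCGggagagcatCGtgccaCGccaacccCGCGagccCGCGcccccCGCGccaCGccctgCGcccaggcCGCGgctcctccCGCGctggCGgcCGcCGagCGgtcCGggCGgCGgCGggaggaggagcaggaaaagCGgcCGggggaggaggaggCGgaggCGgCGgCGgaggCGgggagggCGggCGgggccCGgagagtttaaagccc
Dlk1, chr12:109418499-109418748 (GRCm39, +): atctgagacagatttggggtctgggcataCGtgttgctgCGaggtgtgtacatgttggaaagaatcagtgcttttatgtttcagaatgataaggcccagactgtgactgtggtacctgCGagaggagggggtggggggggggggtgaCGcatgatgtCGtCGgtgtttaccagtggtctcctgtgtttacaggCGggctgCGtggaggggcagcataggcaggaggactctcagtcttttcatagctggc
The whole 300-base windows held 10 CG in Magel2, 45 in Grb10 and 9 in Dlk1, against a median of 7 and quartiles of 3 and 20 over 32851 mouse windows. Both Grb10 windows lie inside the annotated span of the gene, and the other one, which lies further in, held 9. The window of Plagl1 held 26, that of Peg3 13 and that of Ndn 11, and the 3 windows of Mest held 8, 17 and 17.

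MYCN, with its partner MAX, is known to bind the E-box CACGTG, so this motif is shown where it occurred. Of the 10 windows of the members, 1 held CACGTG, which reads the same on both strands. It was that of Plagl1, 182 bases before the RefSeq start. This window lies inside the Plagl1 span of GENCODE, with 167 of its 250 upstream bases in exons.
Plagl1, chr10:12966382-12966411 (GRCm39, +), E-box in capitals: gcctcctcctcaCACGTGacactggagggg
Over all mouse windows, 7.15% held CACGTG. The variant CATGTG, searched on both strands, stood on the minus strand of 2 overlapping windows of Mest and in no other window of the members, and is held by 14.2% of all windows. The YY1 core CCATNTT, searched likewise, stood in the window of Magel2 and in the Grb10 window with 9 CG, and is held by 16.1% of all windows. These are matches of letters, and binding was not measured.

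Across the contrasts, tumors differed from glands in 2 opposite ways within this set of genes. Ndn, Magel2, Peg3 and Plagl1 were higher in tumors of both models than in AG. Cdkn1c and Grb10 were lower in TI than in AG and, in the tumor-free AGM glands, higher than in AG. The rise of Grb10 in AGM lost its call under several alternative settings. Dlk1, Peg10 and Mest were called in none of the 5 contrasts.

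**Figure D1:**
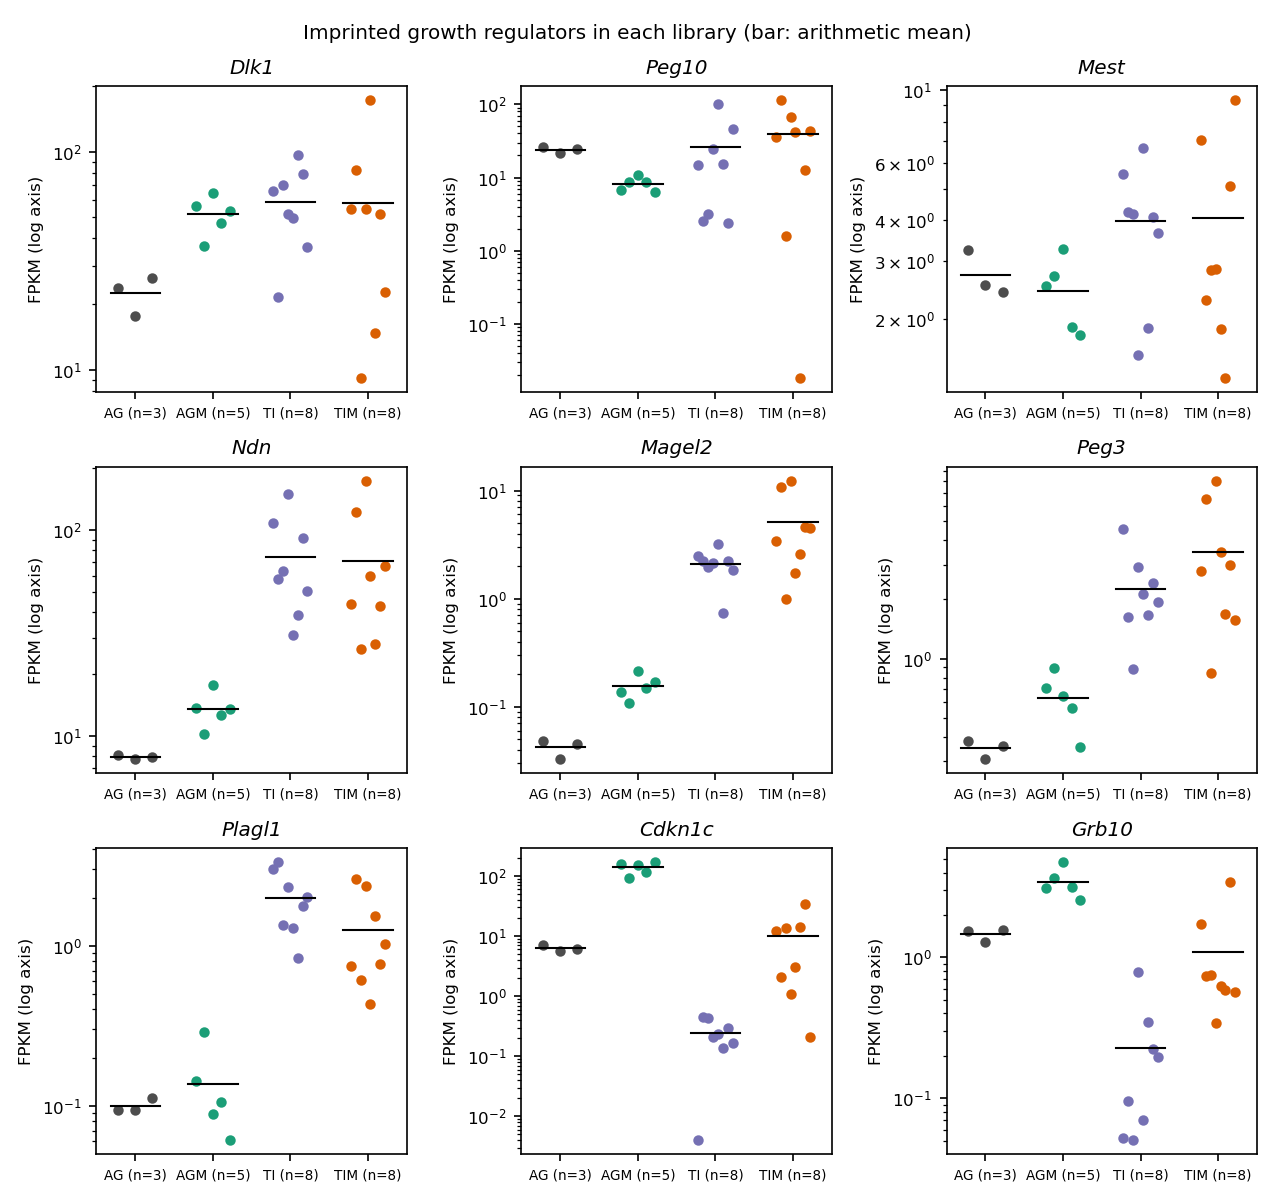
FPKM (log axis) of the 9 genes in each library, by group, with 1 point per library and a bar at the arithmetic mean. Ndn, Magel2 and Plagl1 of all 16 tumors lie above every gland, Cdkn1c of all 5 AGM glands lies above every other library, and Peg10 and Dlk1 spread widely among the tumors. The share of all tested genes that lie apart in this way was not counted.

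In TI vs AG, 6 of the 9 members were called, 4 higher and 2 lower, against 52.4% of all tested genes (24.6% higher and 27.7% lower). In TIM vs AG, 4 of 9 were called, all higher, against 51% (22.5% higher and 28.5% lower). In TIM vs AGM, which compares tumors and tumor-free glands that both carry MYCN, 6 of 9 were called, 4 higher and 2 lower, against 65.3% (31.9% higher and 33.4% lower). Shares of called members were thus near the background. The median log2 fold change of the members was 1.21, 0.84 and 0.92 in these contrasts, against -0.00, -0.00 and 0.03 over all tested genes. All 9 members passed the filter on low values (at least 1 FPKM in at least 3 libraries), but Peg3, Plagl1 and Magel2 passed it through tumor libraries alone, since every gland was below 1 FPKM. Grb10 reached 1 FPKM outside the glands in 2 TIM tumors only. The counts and medians are therefore descriptions. How many of all tested genes lie apart between groups in the same way was not counted. Statements that groups of a member did not overlap are therefore descriptions too. Without any filter, over 18862 genes, Magel2, Peg3 and Plagl1 were still called in these 3 contrasts (largest limma FDR 0.00902, for Peg3 in TI vs AG). The same limit holds for further genes named here. Begain, Rtl1, Mkrn3, Jag2, Zfp57 and Uhrf1 passed the filter through tumors alone, Phlda2, Slc22a18 and Igf2 through AGM alone, Ube3a through AG alone, and Atp10a, Pon3, Notch2 and Dnmt3l through glands alone. Their tests are given as descriptions.

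**Figure D2:**
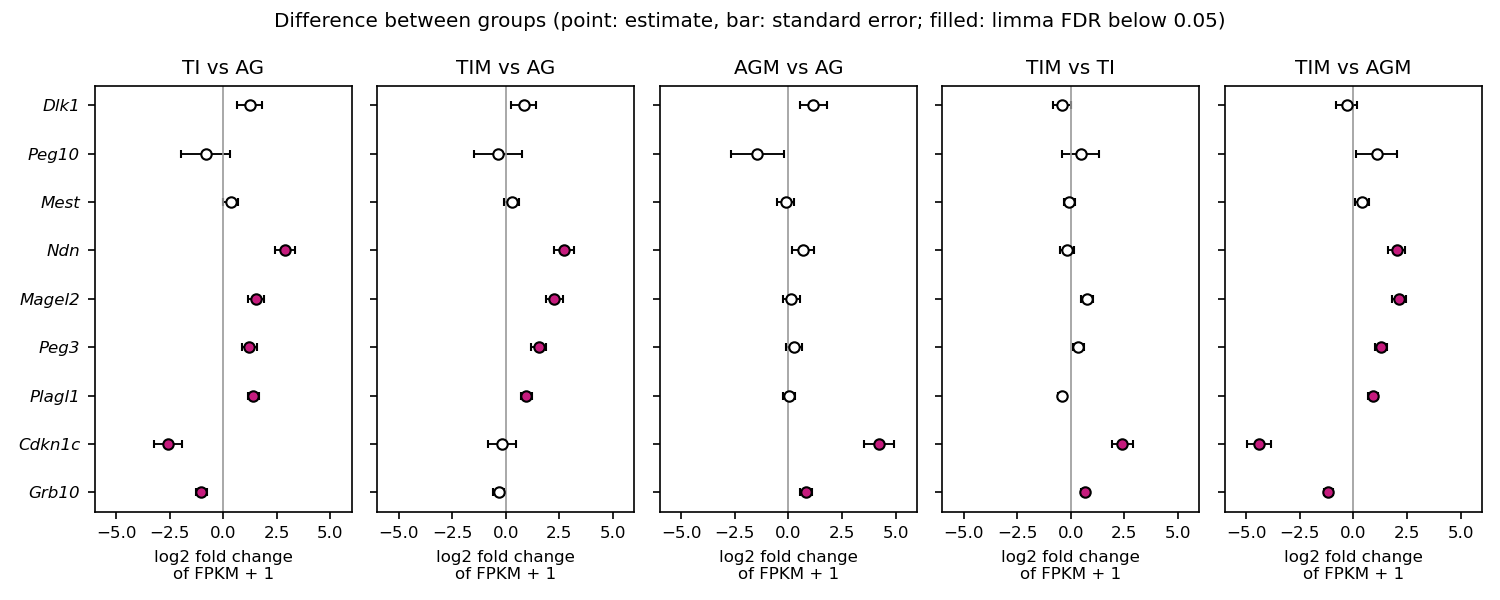
Log2 fold change of FPKM + 1 (x axis) of each gene (y axis) in the 5 contrasts, as the limma estimate with its standard error; filled points had an FDR below 0.05. Ndn, Magel2, Peg3 and Plagl1 lie to the right of 0 in TI vs AG, TIM vs AG and TIM vs AGM, and Cdkn1c crosses from 4.23 in AGM vs AG to -4.39 in TIM vs AGM.

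Ndn encodes necdin, a protein of the MAGE family that is abundant in postmitotic neurons and restrains their proliferation. Its FPKM were 8.16, 7.76 and 7.98 in AG and 13.7, 10.2, 17.7, 12.6 and 13.6 in AGM. In TI they ranged from 31.1 over a median of 60.6 to 150, and in TIM from 26.6 over 52.0 to 174. Glands and tumors did not overlap, and even the lowest tumor exceeded the highest gland. The mean was 74.1 ± 40.1 FPKM in TI (SD, n = 8), 9.30 times that of AG (7.97 ± 0.20, n = 3). The log2 fold change of FPKM + 1 was 2.89 ± 0.47 (SE) in TI vs AG (limma FDR = 1.82e-05), 2.71 ± 0.47 in TIM vs AG (4.14e-05) and 2.03 ± 0.39 in TIM vs AGM (0.000119). By size of the increase, Ndn ranked 85 of 10171 genes in TI vs AG.

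Magel2, the neighbor of Ndn, encodes another MAGE protein, which takes part in endosomal protein sorting with a ubiquitin ligase. It was close to silent in glands, with 16 to 24 reads per AG library and 46 to 79 per AGM library. Its FPKM were 0.0483, 0.0328 and 0.0448 in AG and 0.136, 0.108, 0.212, 0.150 and 0.168 in AGM, so that all 5 AGM glands lay above all 3 AG glands. In TI they ran from 0.741 over 2.17 to 3.20 and in TIM from 1.001 over 3.95 to 12.3. All 16 tumors exceeded all 8 glands. The ratio of mean FPKM to AG was 49.9 in TI and 122 in TIM, whereas the log2 fold change of FPKM + 1, which is small for low values, was 1.53 ± 0.39 (SE; limma FDR = 0.00201) and 2.27 ± 0.39 (3.59e-05). It was 2.12 ± 0.33 in TIM vs AGM (limma FDR = 6.8e-06).

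Ndn and Magel2 belong to the imprinted domain that is lost in Prader-Willi syndrome. Of 3 further paternally expressed genes of the domain, described after their values were seen, Mkrn3 and Snrpn were called higher in both tumor groups. The third, Peg12, did not reach the filter and had mean FPKM of 0.114 in AG, 0.0834 in TI and 0.562 in TIM. On the log2(FPKM + 1) scale Mkrn3, a ubiquitin ligase below 1 FPKM in every gland, was 1.16 ± 0.21 (SE) higher in TI and 1.11 ± 0.21 higher in TIM than in AG (limma FDR = 8.44e-05 and 0.000152). Snrpn, a splicing protein, was 2.70 ± 0.29 higher in TI and 2.08 ± 0.29 in TIM (limma FDR = 6.28e-08 and 3.05e-06). Its overlapping partner Snurf was listed at 0 in all libraries. In the same domain, Ube3a fell by 0.52 in TI and 0.58 in TIM vs AG on that scale (limma FDR = 3.27e-05 and 9.16e-06). It was lower in the tumor-free AGM glands as well (-0.64 ± 0.10 vs AG, limma FDR = 2.11e-05), and TIM vs AGM gave 0.06 ± 0.07 (0.463). Atp10a fell by 1.82 and 1.81 in TI and TIM vs AG (limma FDR = 5.55e-15 and 5.44e-15).

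Peg3, a large zinc finger protein linked to cell death and to maternal behavior, was low in glands. Its FPKM were 0.381, 0.308 and 0.360 in AG and 0.705, 0.900, 0.647, 0.556 and 0.353 in AGM. In TI the range was 0.882 to 4.58 with a median of 2.04, and in TIM 0.844 to 8.03 with a median of 2.88. All tumors lay above all AG glands, while the lowest tumors of both models overlapped the highest AGM gland. The log2 fold change of FPKM + 1 was 1.21 ± 0.35 (SE) in TI vs AG (limma FDR = 0.00549), 1.55 ± 0.35 in TIM vs AG (0.000726) and 1.28 ± 0.29 in TIM vs AGM (0.000644). Usp29, which shares the promoter region of Peg3 and was picked after its values were seen, did not reach the filter and had mean FPKM of 0.0099 in AG, 0.653 in TI and 0.462 in TIM.

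Plagl1 (also Zac1) is a zinc finger transcription factor that regulates other imprinted genes and can slow the cell cycle. Its FPKM were 0.0942, 0.0948 and 0.112 in AG and 0.142, 0.288, 0.0892, 0.106 and 0.0611 in AGM. They ranged from 0.837 over 1.90 to 3.35 in TI and from 0.431 over 0.896 to 2.60 in TIM. Every tumor lay above every gland. The ratio of mean FPKM to AG was 19.9 in TI and 12.5 in TIM, and the log2 fold change of FPKM + 1 was 1.39 ± 0.25 (SE; limma FDR = 7.01e-05) and 0.96 ± 0.25 (0.00288). In TIM vs AGM it was 0.92 ± 0.21 (limma FDR = 0.000728).

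The calls of Ndn, which exceeded 1 FPKM in every library, held in these 3 contrasts without each single library in turn. Those of Magel2, Peg3 and Plagl1 did too, but these genes had entered the test through the tumors where they were high. Of other measures that differed between glands and tumors, all 4 cell cycle markers (Mki67, Top2a, Ccnb1 and Birc5) were higher in both tumor groups than in AG. Their summed FPKM were 0.877 to 1.31 in AG and 0.139 to 0.446 in AGM glands, and 5.24 to 43.2 in TI and 0.286 to 22.4 in TIM tumors. With gland sums this low, these markers could reach the filter only with tumor libraries, so their calls are descriptions. Of the 6 chromaffin markers, 2 were higher in TI and 2 in TIM than in AG. In AGM vs AG 4 of them were higher, and in TIM vs AGM 3 were lower. All 6 cortex and all 4 adipocyte markers were lower in both tumor groups than in AG, and in TIM than in AGM. Of 4 endothelial markers, 2 were lower in TI and 4 in TIM than in AG, and of 4 Schwann markers 2 and 1. Of 4 fibroblast markers, 1 was higher and 2 lower in each tumor group, and of 2 tested leukocyte markers 1 was lower in each. In bulk tissue, more cells of a type and more RNA per cell cannot be told apart, and the part of these shifts in the members' differences was not tested.

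Cdkn1c encodes a cyclin-dependent kinase inhibitor that stops the cell cycle in fetal tissues. Its FPKM were 7.16, 5.70 and 6.06 in AG, and 159, 93.2, 154, 118 and 172 in AGM. In TI they ran from 0.0040, which was a single read, over a median of 0.222 to 0.443, and in TIM from 0.209 over 7.64 to 34.6. AGM lay above and TI below every AG gland, while TIM spanned AG. The mean of AGM was 139 ± 32.8 FPKM (SD, n = 5), 22.1 times that of AG (6.31 ± 0.76, n = 3), whose mean was in turn 26.2 times that of TI (0.241 ± 0.149, n = 8). On the log2(FPKM + 1) scale Cdkn1c was 4.23 ± 0.71 (SE) higher in AGM than in AG (limma FDR = 8.73e-05), and the difference was -2.56 ± 0.65 in TI vs AG (0.0022) and -4.39 ± 0.55 in TIM vs AGM (3.87e-07).

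Between the tumor models, Cdkn1c was 2.40 ± 0.48 (SE) higher in TIM than in TI on the log2(FPKM + 1) scale (limma FDR = 0.00149), and 7 of 8 TIM tumors lay above all TI tumors. Most TI samples came from run 1 and no TIM sample did, so the part of the run in this difference was not tested. The remaining TIM tumor, at 0.209 FPKM, fell within the TI range. On recovered reads with limma-voom the FDR of this difference was 0.0838. TIM and AG were not called different (-0.16 ± 0.65, limma FDR = 0.866), since 4 TIM tumors lay above and 4 below all AG glands.

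Grb10 encodes an adaptor that binds the insulin and IGF1 receptors and dampens their signaling. Its FPKM were 1.53, 1.28 and 1.56 in AG and 3.10, 3.68, 4.76, 3.17 and 2.53 in AGM. In TI they ranged from 0.0505 over 0.146 to 0.784 and in TIM from 0.341 over 0.685 to 3.45. On the deposited FPKM the order of the groups was that of Cdkn1c at the ends, with AGM above and TI below all AG glands. The AGM side of this depended on the scaling. With FPKM recomputed on reads outside the 126 genes above 1000 FPKM, AGM library 5 (8.96) lay below AG libraries 1 (9.48) and 3 (9.35). On the log2(FPKM + 1) scale the difference was -1.02 ± 0.25 (SE) in TI vs AG (limma FDR = 0.00163), -1.18 ± 0.21 in TIM vs AGM (5.02e-05) and 0.68 ± 0.19 in TIM vs TI (0.0116). Grb10 was 0.84 ± 0.27 higher in AGM than in AG (limma FDR = 0.0239). This last call was lost when FPKM were recomputed without the 126 genes above 1000 FPKM (limma FDR = 0.288), with a pseudocount of 0.1 (0.115), with limma-voom (0.0848) and without any one AG library (0.0612 to 0.0905) or AGM library 3 (0.0577). In TIM vs AG the difference was -0.34 ± 0.25 (limma FDR = 0.271), which became -0.51 (0.0227) without TIM library 7.

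All 6 cortex markers (Cyp11a1, Cyp11b1, Star, Hsd3b1, Nr5a1 and Mc2r) were called higher in AGM than in AG and lower in both tumor groups than in AG. They thus moved with Cdkn1c and Grb10 across AG, AGM and TI. Cortex sums were at most 5.81 FPKM in TIM and at most 7.15 in TI tumors. The TIM tumor with the highest Cdkn1c and Grb10 had a cortex sum of 0.665 FPKM. The part of cortex cells in these values was not tested.

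**Figure D3:**
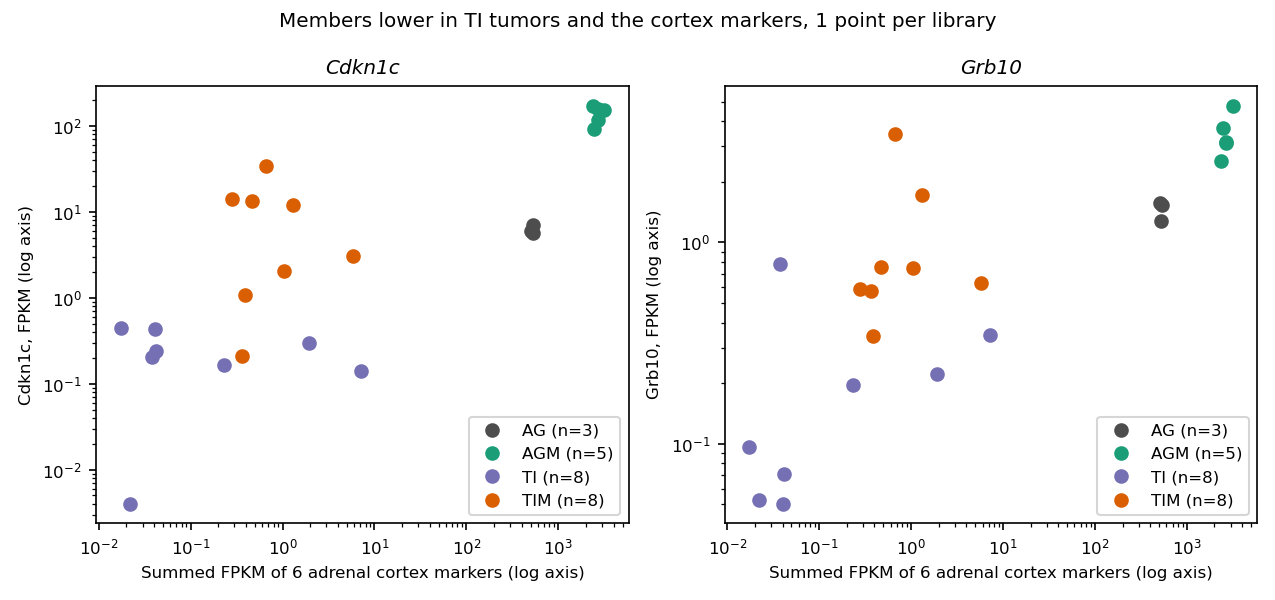
Cdkn1c (left) and Grb10 (right) against the summed FPKM of 6 adrenal cortex markers, with 1 point per library and log axes. AGM glands lie at the upper right with cortex sums of at least 2372, AG glands at 506 to 536, and the tumors at sums of at most 7.15, where TIM tumors reach 34.6 FPKM of Cdkn1c and TI tumors 0.443.

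Neighbors of Cdkn1c in the Kcnq1 domain moved with it only in part. In AGM vs AG, Phlda2 and Slc22a18 rose with Cdkn1c, while Nap1l4 fell and Cd81 and Tssc4 were not called. Phlda2, a maternally expressed inhibitor of placental growth and one of the 2 largest rises of the neighbor list in AGM vs AG beside Calcr (which exceeded 1000 FPKM and is not described), had 1 read in each AG library and 1229 to 2700 reads per AGM library (11.9 to 29.5 FPKM; limma FDR = 4.45e-13, for a gene that reached 1 FPKM in AGM alone). In TIM it was listed at 0 in 6 of 8 tumors and at 0.980 FPKM in 1. AG and AGM came from different runs, and the authors' batch correction can move genes with few reads in a run far. The part of the run and of this correction in the Phlda2 values was not tested. Slc22a18, an organic cation transporter of the domain picked after its values were seen, was 1.42 ± 0.32 (SE) higher in AGM on the log2(FPKM + 1) scale (limma FDR = 0.00181), and also reached 1 FPKM in AGM alone. Nap1l4, a histone chaperone, was the largest fall of the neighbor list there, at -0.79 ± 0.23 (limma FDR = 0.0133), followed by Ube3a of the Ndn domain. In TIM vs AGM, Phlda2 (-4.22 ± 0.18 (SE), limma FDR = 1.85e-15) and Slc22a18 (-2.02 ± 0.25, 2.72e-07) were lower, as was Cdkn1c. Cd81 was lower there as well, and Nap1l4, Tssc4 and Osbpl5 were higher.

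In AGM vs AG, 2 of 9 members were called (Cdkn1c and Grb10, both higher), against 28.6% of tested genes (14.6% higher and 14% lower). The median log2 fold change of FPKM + 1 was 0.27 for the members and -0.00 for all genes. When only the 8 gland libraries entered the fit, which then took its spread from glands alone, 6312 of the 10171 tested genes were called. Of the members, 7 of 9 were called there. The additional ones were Dlk1 (limma FDR = 0.00178), Ndn (0.00482), Magel2 (0.00228) and Peg3 (0.0437), each higher, and Peg10 (0.000204), which was lower. With recomputed FPKM, Cdkn1c was the sole member called, where 5863 genes were called in all.

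Dlk1 encodes a membrane protein that resembles Notch ligands and holds precursor cells in an undifferentiated state. It was among the more abundant members, with FPKM of 23.7, 17.6 and 26.4 in AG and 56.2, 36.9, 64.8, 46.9 and 53.7 in AGM. In TI the range was 21.6 to 96.1 with a median of 58.6, and in TIM 9.15 to 173 with a median of 53.1. All 5 AGM glands and 7 of 8 TI tumors were above every AG gland, whereas 5 TIM tumors were above and 2 below them. No contrast of Dlk1 passed the threshold. The log2 fold change of FPKM + 1 was 1.24 ± 0.58 (SE) in TI vs AG (limma FDR = 0.0771), 1.16 ± 0.62 in AGM vs AG (0.173) and 0.84 ± 0.58 in TIM vs AG (0.236). The first of these passed without TI library 2 (limma FDR = 0.0415) and when only TI and AG were fitted (0.018).

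The 2 largest rises among the tested neighbors of the members in TI vs AG were Begain, near Dlk1, and Ddc, near Grb10. Ddc, which makes dopamine from DOPA, was 2.78 ± 0.74 (SE) higher on the log2(FPKM + 1) scale (limma FDR = 0.00311). Begain encodes a protein of neuronal synapses and, like Rtl1, was below 1 FPKM in every gland. It had mean FPKM of 0.238 ± 0.038 in AG (SD, n = 3), 21.9 ± 7.96 in TI and 5.63 ± 3.95 in TIM (n = 8 each), with log2 fold changes of FPKM + 1 of 4.12 ± 0.39 (SE) and 2.21 ± 0.39 (limma FDR = 6.98e-09 and 5.31e-05). Rtl1, a retrotransposon-derived gene of the Dlk1 domain, was 2.43 ± 0.73 higher in each of TI and TIM (limma FDR = 0.00762 and 0.00792). Of the Notch ligands, receptors and targets, 7 of 15 were tested, and 1 was called higher (Jag2, 2.08 ± 0.31) and 1 lower (Notch2, -1.44 ± 0.07) in TI vs AG. In TIM vs AG, Dner and Jag2 were higher and Notch2 lower. Dner, a Notch ligand of neurons, was 3.10 ± 0.44 (SE) higher in TIM than in TI (limma FDR = 8.11e-05).

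Peg10, derived from a retrotransposon and needed for the placenta, was even within each group of glands and spread over orders of magnitude in tumors. Its FPKM were 25.8, 21.95 and 24.2 in AG and 6.71, 8.82, 10.8, 8.60 and 6.29 in AGM, so that all AGM glands lay below all AG glands. In TI the range was 2.37 to 102 with a median of 15.1, and in TIM 0.0183 to 115 with a median of 38.7. Tumors lay on both sides of AG in each model, 2 above and 5 below in TI and 5 above and 3 below in TIM. The SD of log2(FPKM + 1) was 0.11 in AG, 0.28 in AGM, 1.83 in TI and 2.40 in TIM. None of the 5 contrasts was called. The log2 fold change of FPKM + 1 was -1.45 ± 1.23 (SE) in AGM vs AG (limma FDR = 0.404), the 35th lowest of 10171 genes, and -0.82 ± 1.14 in TI vs AG (0.593).

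The lowest TIM tumor, library 6, held 11 reads of Peg10 where the next lowest held 1017. Sgce, a sarcoglycan gene picked after its values were seen, which starts 98 bases from Peg10 in the annotation and is transcribed the opposite way, had its lowest TIM value in the same tumor, at 0.0293 FPKM (28 reads) against 0.388 to 2.24 in the other 7. Casd1, the next gene of the domain, stood at 1.28 FPKM there, within the 1.16 to 3.85 of the other TIM tumors. The same tumor was the lowest of the TIM tumors in further measures. These were Ddc (0.271 FPKM against 1.26 to 37.8 in the other 7), Rtl1 (0.236 against 0.287 to 21.5), Cd81 (7.24 against 11.4 to 34.5) and the sums of chromaffin (109.6), cortex (0.281) and adipocyte (0.0437) markers. Their part in the Peg10 and Sgce values was not tested. This library, Casd1 and Cd81 were singled out after their values were seen, and no test was made. Over the groups, Sgce was called in none of the 5 contrasts (-0.33 ± 0.21 (SE) in TI vs AG on the log2(FPKM + 1) scale, limma FDR = 0.197). The 2 largest falls in the neighbor list were Pon3, a paraoxonase of the Peg10 domain (-2.57 ± 0.08 in TI and -2.54 ± 0.08 in TIM vs AG, limma FDR = 2.05e-17 and 2.71e-17), and Atp10a.

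**Figure D4:**
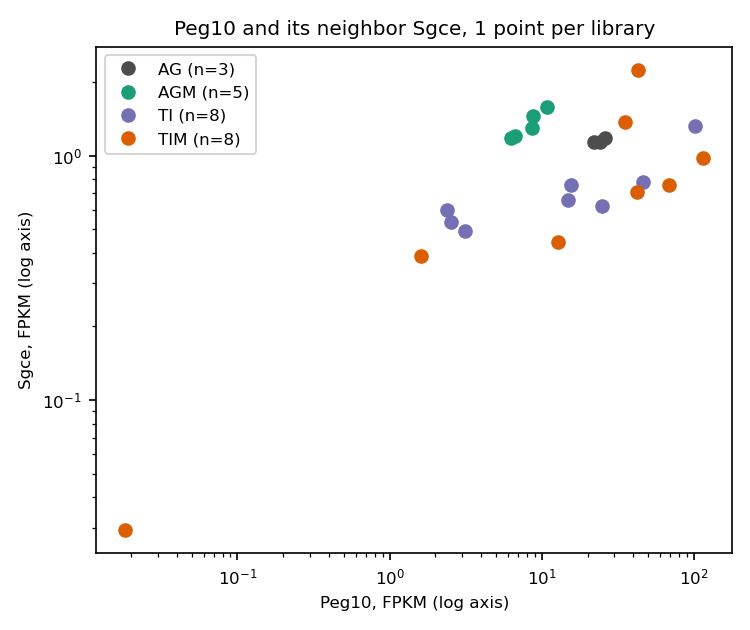
FPKM of Sgce (y axis) against Peg10 (x axis), both on log axes, with 1 point per library colored by group. AG and AGM glands cluster, Peg10 spreads from 1.61 to 115 in 7 TIM tumors, and 1 TIM tumor lies apart at 0.0183 for Peg10 and 0.0293 for Sgce.

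Mest, a member of the hydrolase family expressed in growing mesoderm, varied little between the groups. Its FPKM were 3.25, 2.53 and 2.41 in AG and 2.53, 2.71, 3.27, 1.89 and 1.78 in AGM. They ranged from 1.55 over 4.14 to 6.66 in TI and from 1.32 over 2.83 to 9.32 in TIM. All groups overlapped. The log2 fold change of FPKM + 1 lay between -0.13 ± 0.39 (SE) in AGM vs AG and 0.40 ± 0.31 in TIM vs AGM, with limma FDR of 0.847 and 0.257.

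In TIM vs TI, 2 of 9 members were called (Cdkn1c and Grb10, both higher), against 22.9% of tested genes (10% higher and 12.9% lower). The median log2 fold change of FPKM + 1 was 0.33 for the members and -0.00 for all genes. Magel2 was 0.74 ± 0.29 (SE) higher (limma FDR = 0.0656) and the difference of Plagl1 was -0.43 ± 0.19 (0.0956). Neither passed, but leaving out a single tumor brought each below the threshold. The FDR of Magel2 was 0.013, 0.0352 and 0.047 without TIM libraries 3, 5 and 6, and that of Plagl1 was 0.0349, 0.036 and 0.0452 without TI library 6 and TIM libraries 2 and 4. The step from gland to tumor with and without MYCN was compared by the contrast of TIM vs AGM minus TI vs AG, whose sides also differ in IGF2BP1 copies and in run. There, 0 of 9 members were called, against 10% of tested genes, and 1 of 9 (Cdkn1c, -1.83 ± 0.85, limma FDR = 0.195) had an unadjusted p below 0.05. With limma-voom the count was also 0.

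Within the tumors of one model, the members could be compared library by library. Over 36 pairs of members, the median Pearson r of log2(FPKM + 1) was 0.08 in TI and 0.12 in TIM (n = 8 each), and 0 pairs passed an adjusted exact permutation p of 0.05 in either model (3 and 10 pairs at an unadjusted p below 0.05). By Spearman's rho 1 pair passed, in TIM. That pair was Peg10 and Ndn, with rho = 0.95 (exact p = 0.00114, adjusted 0.0411) and r = 0.84 (exact p = 0.0129, adjusted 0.0932). Without the 2 libraries farthest from the median of Peg10, r was 0.80 (exact p = 0.0458, adjusted 0.308). The neighbors Ndn and Magel2 had r = 0.87 in TIM (exact p = 0.00722, adjusted 0.0932) and rho = 0.76 (exact p = 0.0368, adjusted 0.221), and r = 0.49 without the 2 farthest libraries. In TI the strongest pair was Mest and Grb10, with r = -0.89 (exact p = 0.00144, adjusted 0.0518) and rho = -0.81 (exact p = 0.0218, adjusted 0.392), and r = -0.60 without the 2 farthest libraries. Within-run values could not be had, since columns carry no run.

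Relatives of the members by sequence, such as further MAGE proteins and kinase inhibitors, were followed as a list. Of 20 listed relatives, 13 reached the filter on low values and were tested. Of these 13, 11 were higher and 0 lower in TI vs AG, where 24.6% of all tested genes were higher and 27.7% lower. The 0 depends on the filter. Without it, Rtl3 (-0.041 on the log2(FPKM + 1) scale, limma FDR = 1.37e-06) and Plag1 (-0.045, 0.00191) were called lower in TI vs AG. Magee2 was called higher there (0.18, 0.0153). In TIM vs AG 10 were higher and 0 lower, against 22.5% and 28.5% of all genes. Their median log2 fold change of FPKM + 1 was 0.98 and 1.13. Cdkn1b, the paralog of Cdkn1c, had mean FPKM of 1.14 in AG, 2.17 in AGM, 6.76 in TI and 9.65 in TIM, and was 1.81 ± 0.27 (SE) higher in TI and 2.22 ± 0.27 in TIM than in AG (limma FDR = 6.83e-06 and 3.88e-07). Cdkn1a, another paralog, was 1.80 ± 0.29 higher in TI (limma FDR = 1.88e-05), and its difference in TIM vs TI was -1.36 ± 0.22 (0.000204). In TI, the 3 kinase inhibitors of this family thus did not move together, with Cdkn1c lower and Cdkn1a and Cdkn1b higher than in AG. Magee1, a MAGE relative of Ndn and Magel2, was 2.14 ± 0.34 (SE) higher in TIM vs AG (limma FDR = 1.68e-05).

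**Figure D5:**
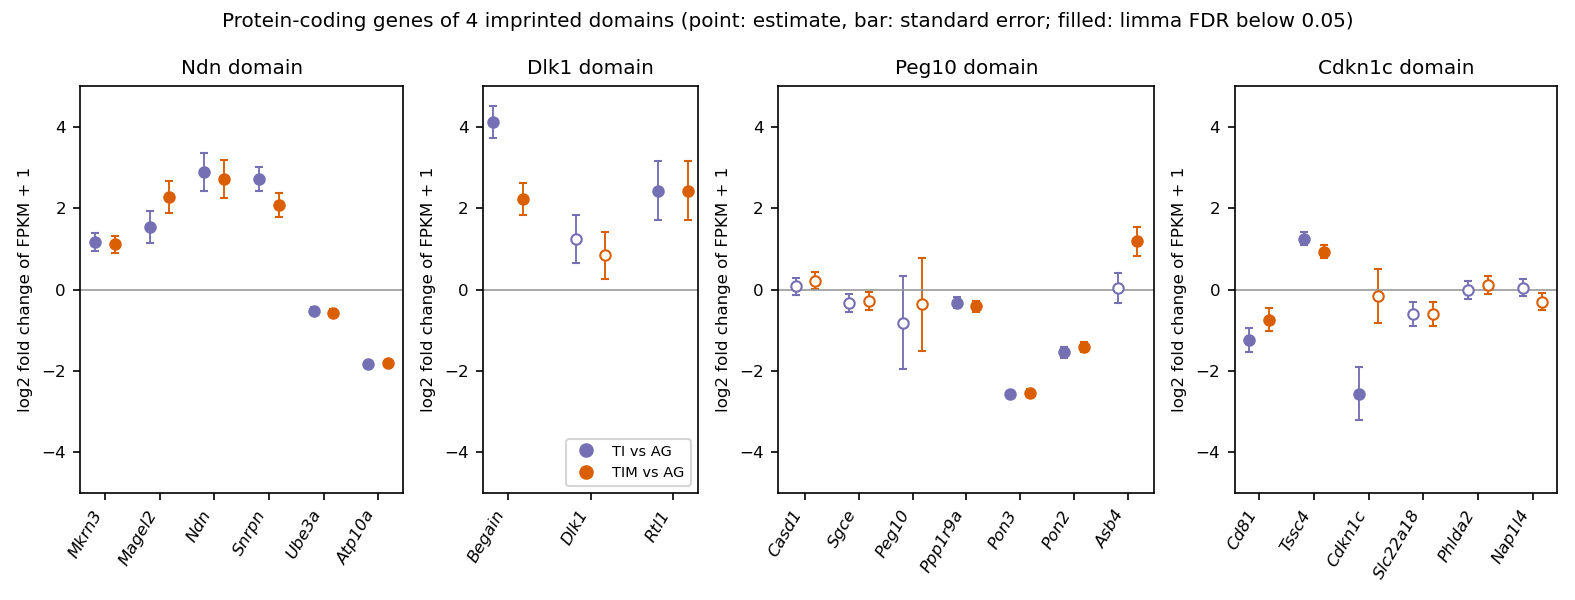
Log2 fold change of FPKM + 1 against AG (y axis) of tested genes in the domains of Ndn, Dlk1, Peg10 and Cdkn1c, in TI (purple) and TIM (orange), as the limma estimate with its standard error; filled points had an FDR below 0.05. In the Ndn domain Mkrn3, Magel2, Ndn and Snrpn lie above 0 and Ube3a and Atp10a below it.

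Of 23 tested neighbors in the members' domains, 6 were higher and 7 lower in TI vs AG, and 8 higher and 7 lower in TIM vs AG, with median log2 fold changes of FPKM + 1 of 0.01 and 0.16. Over all tested genes, 24.6% were higher and 27.7% lower in TI vs AG, and 22.5% and 28.5% in TIM vs AG, so the neighbors lay near the background in TI. Of 20 tested imprinted genes of other domains, 8 were higher and 3 lower in each tumor group. The largest rises were those of Nap1l5 (3.09 ± 0.65 (SE) in TI and 4.25 ± 0.65 in TIM) and Nnat (2.43 ± 0.67 and 3.01 ± 0.67), and the largest falls those of Dhcr7 (-3.10 ± 0.19 and -2.57 ± 0.19) and Dcn (-2.40 ± 0.38 and -2.24 ± 0.38), with limma FDR of at most 0.00412. Igf2, the fetal growth factor, picked after its values were seen, was not called in either tumor group and was 1.18 ± 0.14 higher in AGM than in AG (limma FDR = 9.61e-07), where it reached 1 FPKM in 4 of 5 AGM libraries and in no other library.

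Of 10 tested genes that maintain imprints, 4 were higher and 1 lower in TI vs AG, against 24.6% and 27.7% of all tested genes. Zfp57, the zinc finger protein that guards methylated imprints, had mean FPKM of 0.097 in AG, 0.0506 in AGM, 4.73 in TI and 1.75 in TIM. It was 2.18 ± 0.42 (SE) higher in TI and 1.25 ± 0.42 higher in TIM than in AG on the log2(FPKM + 1) scale (limma FDR = 0.000143 and 0.0159). Uhrf1, which guides methylation to replicated DNA, was 2.41 ± 0.55 and 1.47 ± 0.55 higher (limma FDR = 0.000799 and 0.0283). Dnmt3l, a cofactor of germ line methylation, had differences of -1.15 ± 0.07 and -1.17 ± 0.07 (limma FDR = 4.68e-12 and 3.53e-12). In TIM vs TI, 5 of these genes were lower and 0 higher, against 12.9% and 10% of all tested genes. The largest of these falls were Zfp57 (-0.93 ± 0.31 (SE), limma FDR = 0.0343) and Dnmt3a, a methyltransferase (-0.61 ± 0.21, 0.0394). Without the filter on low values, Zfp57 was no longer called there (limma FDR = 0.0510).

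Over all 24 libraries, the gene most alike a member by Pearson r of log2(FPKM + 1), of 10062 genes compared, was Snrpn for Ndn (r = 0.94), Spns2 for Magel2 (0.92) and Ahi1 for Peg3 (0.93). It was Grtp1 for Cdkn1c (0.95), Tulp3 for Grb10 (0.92), Inpp5e for Dlk1 (0.86), Sike1 for Mest (0.76) and Evi5 for Peg10 (0.75). The libraries share groups, so these values describe likeness of pattern over glands and tumors and carry no test.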

How the data were processed

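Poly(A)-enriched, strand-specific RNA-seq of 24 mouse samples was analysed. The authors trimmed reads with cutadapt 2.8, aligned them to mm39 with HISAT2 2.1.0 (SAMtools 1.10), counted with featureCounts 2.0.0, corrected the counts for the sequencing run with ComBat-seq and scaled them by TMM in edgeR 3.40. The annotation release is not given in the sources used here. The deposited values were FPKM, which are not counts. ComBat-seq can move genes with few reads in a run far. Another 9 columns held the authors' fold changes, p-values and FDR, and were not used.

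Columns showed the group but not the sample, so libraries are numbered by column order within a group, and run, zygosity and tumor site were not used. Nothing in the labels used here says that samples came from separate animals, so p-values measure the spread between samples. FPKM multiplied by length were whole multiples of 1 step for 100.0% of values (tolerance 0.01), which returned corrected read numbers. These are not the sequencing depth, and statements on them cover counting error only.

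limma 3.58.1 (R 4.3.3, trend) was fitted to log2(FPKM + 1) over all 4 groups, for the 10171 genes that reached 1 FPKM in 3 or more libraries, with Benjamini-Hochberg adjustment. This scale understates the change of low genes. The code was tested on simulated data. Correlations used exact permutation in Python 3.11.15. Positions are from GENCODE M39 (GRCm39, the same build as mm39). The members and lists were chosen with earlier results of these data known. From each list, counts are given with the 2 largest rises and falls past the threshold, and other genes of the lists (among them Mkrn3, Snrpn, Peg12, Usp29, Slc22a18, Sgce, Casd1, Cd81 and Igf2, and Ube3a in tumors) were picked after their values were seen. One chromaffin marker and the gene most alike Plagl1 are not reported here. Alternatives were a pseudocount of 0.1, no filter, at least 1 FPKM in every library, FPKM recomputed on reads outside the 126 genes above 1000 FPKM, limma-voom on the recovered reads, only the 2 groups compared, and each library left out.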

Additional observations from a re-analysis of the deposited data

Results flagged for a closer look

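Within groups of 5 or 8 libraries, 5 of 27 sets of 1 gene in 1 group held a library far from the rest. About 1 in 20 would by chance for normally distributed values, which FPKM need not follow, and all 5 were the highest library. Taken on FPKM, the rule did not flag the low Peg10 value of TIM library 6. Dlk1 reached 172.8 FPKM in 1 TIM tumor (library 5), where the next was 82.7. That tumor also had the lowest cell cycle marker sum of the TIM tumors (0.286 FPKM) and the highest chromaffin (4634), adipocyte (36.1) and Schwann (20.01) sums, whose part in the Dlk1 value was not tested. Without it, Dlk1 in TIM vs AG was 0.54 on the log2(FPKM + 1) scale (limma FDR = 0.382). Cdkn1c reached 34.6 FPKM in TIM library 7, where the next was 14.2, and Grb10 reached 3.45 FPKM in the same tumor, where the next was 1.72. Without that tumor Cdkn1c remained called in TIM vs TI, at 2.05 (limma FDR = 0.00179). In TI, Peg10 reached 102.3 FPKM in library 5, where the next was 46.1, and Grb10 reached 0.784 FPKM in library 4, where the next was 0.346.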

How the results depend on the processing

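No paired analysis was possible because the columns carry no replicate numbers. All members reached the filter, so the test for genes below it was not run. Of the members' values under single alternatives, 738 kept direction and side of the threshold, 8 lost a call, 15 gained one and 10 reversed, none of the last called. With at least 1 FPKM in every library, which leaves 3464 genes and Ndn, Dlk1 and Mest of the members, all-gene calls were 1944 in TIM vs AGM, 737 in TIM vs TI, 1627 in TI vs AG, 569 in AGM vs AG, 1534 in TIM vs AG and 14 in TIM vs AGM minus TI vs AG, against 6639, 2332, 5327, 2908, 5190 and 1018. Recomputed FPKM gave 5863 calls in AGM vs AG (1280 higher and 4583 lower, against 1488 and 1420) and 3595 in TIM vs TI (1074 and 2521, against 1017 and 1315). In TIM vs AG they gave 2684 higher and 4458 lower (against 2293 and 2897), and in TIM vs AGM 5470 and 3659 (against 3241 and 3398). They moved the median of all genes to -0.34 in AGM vs AG, -0.14 in TIM vs AG, -0.12 in TIM vs TI and 0.24 in TIM vs AGM. With only the 2 groups compared, AGM vs AG had 6312 calls and TIM vs TI 1309. TIM vs AGM minus TI vs AG had 600 calls with a pseudocount of 0.1, 1626 without a filter and 137 with limma-voom. The cause of these moves was not tested. Leaving out single libraries gave 4322 to 5446 calls in TI vs AG, 4148 to 5420 in TIM vs AG, 1727 to 2878 in AGM vs AG, 1815 to 2778 in TIM vs TI, 5968 to 6894 in TIM vs AGM and 606 to 1539 in TIM vs AGM minus TI vs AG. AGM vs AG had 1727, 1771 and 1826 calls without AG libraries 1, 2 and 3, and TIM vs AGM minus TI vs AG had 606, 612 and 626 without these and 1539 without TIM library 5.

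Reversals, on the log2(FPKM + 1) scale, were Cdkn1c in TIM vs AG without TIM library 4 (0.08) or 8 (0.19; range over single libraries left out -0.51 to 0.19), Peg10 in TIM vs AG without TIM library 3 (0.05) or 6 (0.24; range -0.73 to 0.24) and in TIM vs TI with limma-voom (-0.17), Mest in TIM vs TI without TI library 5 or TIM library 5 or 6 (range -0.24 to 0.066), and Plagl1 in AGM vs AG with recomputed FPKM (-0.020) or without AGM library 2 (range -0.0014 to 0.069). The 0 adjusted correlations in TI and in TIM stayed 0 with recomputed FPKM, with a pseudocount of 0.1 and without the 2 farthest libraries.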
